A study of Mus musculus with 7 samples.

Results

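The comparison set colon epithelium of mice given the dietary carcinogen PhIP and then dextran sulfate sodium (DSS) against that of mice given DSS alone, both labelled as taken 7 days after DSS. Members were the genes with at least 10 unique reads summed over the DSS day 7 and PhIP/DSS day 7 libraries, with a gene missing from a table counted as 0 reads. Of the 18036 genes listed in at least 1 library of the series, 13639 were members, and 3239 others had fewer reads in the pair. At the limit, 125 genes had exactly 10 reads and 143 had 9. All 7 libraries came from female hCYP1A mice of strain C57BL/6, 6 weeks old at the start, a line that carries human CYP1A genes. The DSS mice drank 1.5% DSS for 5 days. The PhIP/DSS mice first received 2 doses of PhIP at 100 mg/kg body weight, 4 days apart, and a week later the same DSS course. The control mice received neither agent. By the labels killing followed 1, 3 or 7 days after DSS, and epithelium was scraped off the muscle layer. The names of the deposited files carry other day codes, 3, 7 and 17 for the pairs labelled day 1, 3 and 7, and what these count from is not stated. Both files of a pair carry the same code, so the pairs are the same by either, and the days given here are those of the labels. The submitters describe the pathology as partial colitis in both day 7 groups, as colitis on days 1 and 3, and as normal in the controls. Equal amounts of RNA from 3 mice made up each library, so each condition has 1 pool, no spread between mice can be given, and PhIP cannot be told apart from any other difference between the 2 pools. No group received PhIP without DSS.

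PhIP is a heterocyclic amine that forms in well-cooked meat. It becomes a DNA-binding carcinogen after N-hydroxylation, a step that cytochrome P450 1A enzymes carry out. DSS damages the colon lining, lets bacteria reach the tissue and sets off an acute colitis rich in neutrophils, after which crypts regrow from stem cells kept by Wnt signaling. Interferons, released during such inflammation, switch on antiviral genes and the genes that load and display peptides on major histocompatibility complex (MHC) molecules.

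Depth was 8.26 M unique reads for DSS day 7 and 8.40 M for PhIP/DSS day 7 (M, mega), and the 7 libraries ranged from 7.66 M to 8.78 M. Ratios below are of reads scaled by these totals, and each interval is an exact 95% interval that covers counting error only. A gene with 0 reads on one side has its ratio set against a floor of 3 reads and written as "at least". Levels are in RPKM, which is reads scaled by gene length and by the library's total. The labelled tissue is epithelium, and its markers were high in both pools: Epcam, a surface glycoprotein of epithelia, had 951 RPKM with DSS and 1018 RPKM with PhIP/DSS; Krt8, a simple epithelial keratin, had 3302 RPKM with DSS and 3284 RPKM with PhIP/DSS; and Cdh1, E-cadherin, had 499 RPKM with DSS and 443 RPKM with PhIP/DSS. Other cell types were present too. Summed over each marker list, fibroblast and matrix genes had 186 RPKM with DSS and 140.3 with PhIP/DSS, smooth muscle genes 49.6 and 49.1, and endothelial genes 10.4 and 12.2. Cyp1a1 and Cyp1a2, the mouse counterparts of the human genes named in the line, were listed in no library.

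Most genes differed little between the day 7 pools. The median log2 ratio of PhIP/DSS to DSS over the 13639 genes was 0.03, 90% of genes lay between -0.74 (the 5th percentile) and 0.84 (the 95th), and 53.9% were higher with PhIP/DSS. At least 2-fold higher were 483 genes, 3.54% of those compared, and at least 2-fold lower were 447, 3.28%. The counting interval excluded equality for 315 of the 483 and 302 of the 447, and 74 and 88 genes had an interval wholly beyond 2-fold. Of the 930 genes past 2-fold, 582 had fewer than 50 reads in the pair. With 1 pool per side these counts describe the pools and carry no test.

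**Figure D1:**
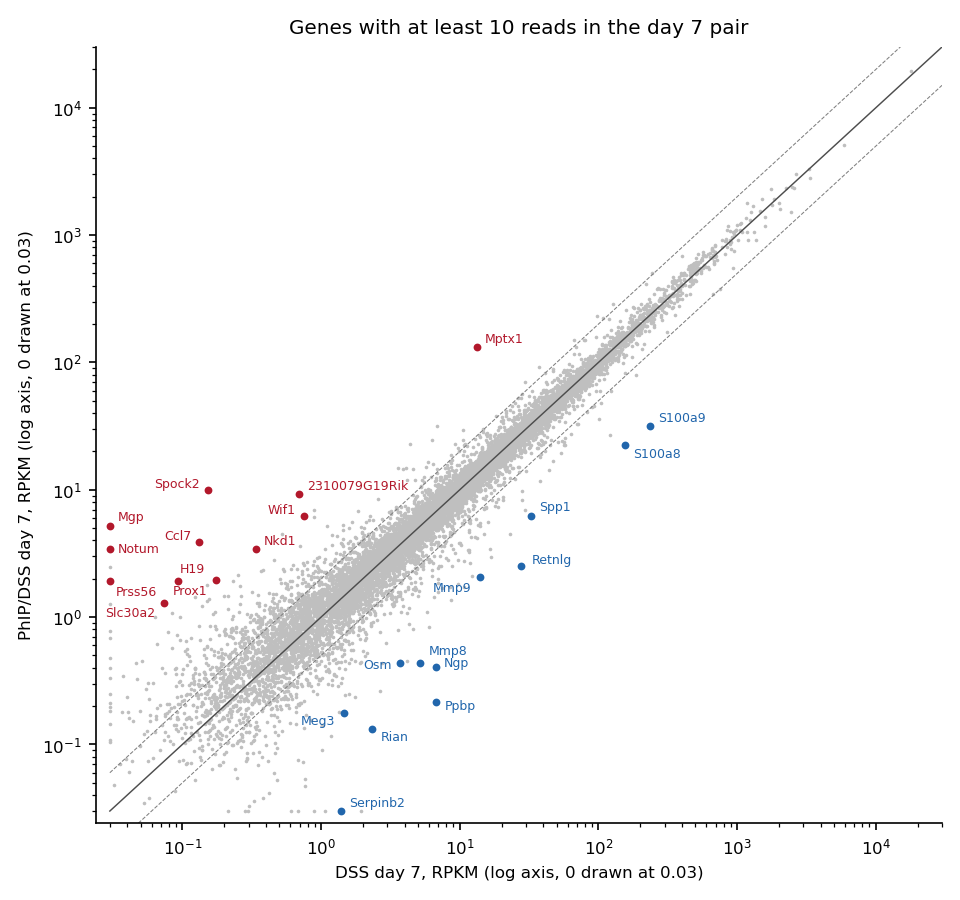
RPKM of each of the 13639 genes in the DSS day 7 library (x axis) and the PhIP/DSS day 7 library (y axis), both on log axes with 0 drawn at 0.03. Grey points are genes, the solid line is equality, dashed lines are 2-fold, and coloured points are the 12 genes with the highest lower bound of the ratio (red) and the 12 with the lowest upper bound (blue). Mptx1, S100a8 and S100a9 stand off the line at high levels, and the other coloured genes lie below 50 RPKM in both libraries.

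Neutrophil transcripts were lower with PhIP/DSS on day 7 in all 14 of the list's 18 genes that had at least 10 reads, and each was at least 2-fold lower, against 3.28% of all genes. Their median log2 ratio was -2.22, and their summed level was 516 RPKM with DSS and 81.9 with PhIP/DSS, against 3.18 in the control. S100a9, which with S100a8 forms the neutrophil protein calprotectin, had 0.802 in the control library, 16.4 in DSS and 426 in PhIP/DSS on day 1, 583 and 14.4 on day 3, and 236 and 31.7 on day 7, in RPKM. On day 7 S100a9 was 7.44-fold lower (interval 6.18 to 9.00) and S100a8 6.88-fold lower (interval 5.38 to 8.90) in the PhIP/DSS pool, yet both stayed well above the control level. Retnlg, a resistin-like gene of neutrophils, had 27.8 RPKM with DSS and 2.54 RPKM with PhIP/DSS and was 11-fold lower (interval 6.20 to 21.1). The granule genes followed the same direction, with Ngp 16.5-fold lower (interval 6.16 to 62.5) and the collagenase gene Mmp8 11.9-fold lower (interval 6.02 to 26.7). Ppbp, a platelet and neutrophil-attracting chemokine, had 62 reads with DSS and 2 with PhIP/DSS, a ratio of 31.5 (interval 8.37 to 266). Fewer neutrophils and less of their RNA per cell cannot be told apart in pooled tissue, here or for any cell type below.

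The sign of the neutrophil difference was not the same on the other days. On day 1 all 14 measured members were higher with PhIP/DSS, with a median log2 ratio of 4.19, and on day 3 all 14 were lower, with a median of -4.46. The high libraries for this list were thus PhIP/DSS day 1, DSS day 3 and DSS day 7, and the low ones DSS day 1 and PhIP/DSS days 3 and 7. For scale, 9.39% of genes were at least 2-fold higher and 2.7% lower with PhIP/DSS on day 1, and 2.76% higher and 6.02% lower on day 3.

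Acute inflammatory mediators, the cytokines, chemokines and enzymes of early colitis, were lower in 15 of 17 measured members, with a median log2 ratio of -1.24. At least 2-fold lower were 10 of them, against 3.28% of all genes. Osm, the cytokine oncostatin M, had 3.68 RPKM with DSS and 0.437 RPKM with PhIP/DSS and was 8.43-fold lower (interval 3.84 to 21.9). The neutrophil chemokine gene Cxcl3 was 6.24-fold lower (interval 3.59 to 11.6) and its relative Cxcl2 5.11-fold lower (interval 3.64 to 7.33). Il1b, interleukin 1 beta, was 2.80-fold lower (interval 2.50 to 3.15), and Ptgs2, the inducible cyclooxygenase, 3.22-fold lower (interval 2.67 to 3.91). Of the members with the most reads, Il1rn, the interleukin 1 receptor antagonist, was 1.88-fold lower (interval 1.77 to 1.99), and Nos2, inducible nitric oxide synthase, 1.16-fold lower (interval 1.09 to 1.24). The 2 members that were not lower were Ccl2, a monocyte chemokine gene with 6 reads with DSS and 8 with PhIP/DSS, and Tnf. Tnf had 9.20 RPKM with DSS and 9.34 RPKM with PhIP/DSS, and the ratio was 1.01 (interval 0.786 to 1.31). The list's median was 2.81 on day 1 and -2.08 on day 3. Since neutrophils carry several of these transcripts and the neutrophil list moved with them in every pair, what part neutrophil RNA has in the mediator values was not tested.

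**Figure D2:**
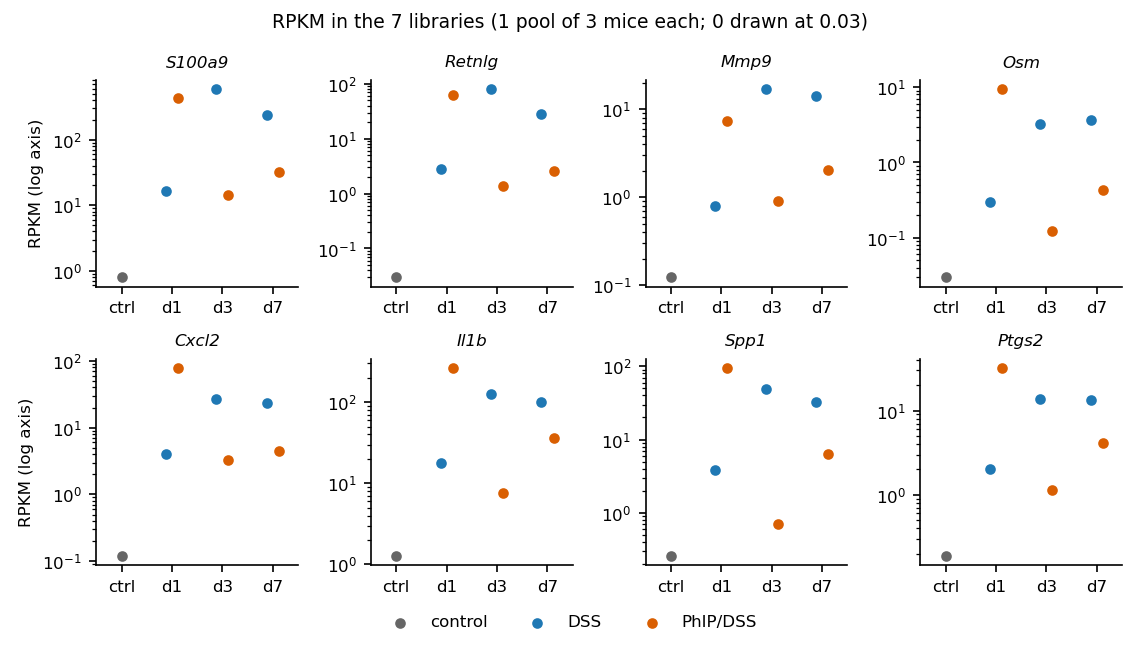
RPKM (log axes, 0 drawn at 0.03) of 8 genes from the neutrophil, mediator, metalloproteinase and repair lists in the 7 libraries, each 1 pool of 3 mice. In each of the 8 panels the control (grey) is the lowest library, and PhIP/DSS (orange) is above DSS (blue) on day 1 and below it on days 3 and 7.

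Tissue-remodelling genes showed the same order. Of 15 matrix metalloproteinases, their inhibitors and plasminogen activator genes, 14 were lower, with a median log2 ratio of -1.34. At least 2-fold lower were 9, against 3.28% of all genes. Mmp9, a gelatinase that the neutrophil list also holds, had 14 RPKM with DSS and 2.06 RPKM with PhIP/DSS and was 6.83-fold lower (interval 5.13 to 9.24). The stromal collagenase Mmp13 was 3.58-fold lower (interval 2.75 to 4.71) and the inhibitor Timp1 4.53-fold lower (interval 2.33 to 9.67). Mmp7, made by epithelium, had 36.3 RPKM with DSS and 32.3 RPKM with PhIP/DSS, and the abundant Mmp14 and Timp3 were 1.33-fold lower (interval 1.20 to 1.48) and 1.34-fold lower (interval 1.21 to 1.48). Spp1, osteopontin, had 0.258 in the control library, 3.85 in DSS and 94.8 in PhIP/DSS on day 1, 48.6 and 0.704 on day 3, and 32.7 and 6.28 on day 7, in RPKM, and was 5.20-fold lower (interval 4.08 to 6.70) on day 7. Serpinb2, a plasminogen activator inhibitor of myeloid and squamous cells, had 23 reads with DSS and 0 with PhIP/DSS and was at least 7.80-fold lower. The repair epithelium list, genes of the fetal-like state of a regrowing colon, was lower in 14 of 19 members with a small median of -0.22. Its abundant members were close between the pools: Ly6a had 692 RPKM with DSS and 824 RPKM with PhIP/DSS and Clu, clusterin, 460.1 RPKM with DSS and 395 RPKM with PhIP/DSS. In the control, day 1 and day 3 libraries Clu had at most 54.5 RPKM, so both day 7 pools were high for it.

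The medians of the macrophage, fibroblast, red blood cell and squamous lists were also lower, by smaller amounts than the median of neutrophil genes. Single members could differ more, such as the squamous gene Krt13, whose log2 ratio was -3.03 against the neutrophil median of -2.22. Macrophage and monocyte genes were lower in 9 of 16, with a median of -0.35 and a split among members: the lysosomal marker Cd68 was 2.37-fold lower (interval 1.79 to 3.15) and the Fc receptor Fcgr1 2.59-fold lower (interval 1.52 to 4.59), whereas the complement gene C1qa of resident macrophages was 1.77-fold higher (interval 1.37 to 2.30). Lyz2 and Cd14, the abundant members, were 1.52-fold lower (interval 1.34 to 1.71) and 1.38-fold lower (interval 1.27 to 1.51). Fibroblast and matrix genes were lower in 13 of 16, none 2-fold, with a median of -0.36: Vim, vimentin, was 1.84-fold lower (interval 1.62 to 2.09) and Col1a1 1.55-fold lower (interval 1.38 to 1.74). Red blood cell genes were lower in 4 of 4, with Hbb-bs, beta globin, at 11.8 RPKM with DSS and 5.59 RPKM with PhIP/DSS. Squamous epithelial genes, which mark stratified epithelium such as that of the anal canal, were lower in 6 of 9 with a median of -0.80: Krt13 had 40 reads with DSS and 5 with PhIP/DSS, and Krt14 10.3 RPKM with DSS and 5.46 RPKM with PhIP/DSS. Smooth muscle (4 of 9 higher, median -0.04; Mylk -0.07 in log2), endothelial (7 of 12, 0.13) and fat genes (2 of 4, -0.18) lay near the median of all genes. Of the 12 fat genes only 4 had at least 10 reads, with log2 ratios from -1.33 for Cidec to 0.65 for Scd1. Adipoq and Plin1 had 0 reads in the pair, so the fat list says little about fat tissue. Enteric neuron and glia genes could hardly be read, with 3 of 12 at 10 reads or more, among them Ret, a receptor kinase, with 608 reads with DSS and 234 with PhIP/DSS, 2.64-fold lower (interval 2.27 to 3.09).

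Several genes of the Wnt pathway were higher in the PhIP/DSS pool on day 7 than in any other library. Notum, a secreted enzyme that removes the lipid from Wnt ligands, had 0 reads with DSS and 58 with PhIP/DSS and was at least 19-fold higher. Its gene lies at chr11:120653788-120661193 (GRCm38), and its level was 0 in the control library, 0.113 in DSS and 0 in PhIP/DSS on day 1, 0.0564 and 0.118 on day 3, and 0 and 3.42 on day 7, in RPKM. Nkd1, an intracellular inhibitor that Wnt signaling itself induces, had 0.272 in the control library, 0.186 in DSS and 0.244 in PhIP/DSS on day 1, 0.0264 and 0.22 on day 3, and 0.337 and 3.42 on day 7, in RPKM, and was 10.2-fold higher (interval 5.61 to 20.2) on day 7. Wif1, a secreted Wnt-binding inhibitor, had 0.756 RPKM with DSS and 6.26 RPKM with PhIP/DSS, was 8.28-fold higher (interval 4.75 to 15.6), and reached at most 1.11 RPKM elsewhere. These 3 inhibitors were thus high in 1 pool of the 7 and low in the other 6, the control included.

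Within the list of crypt stem cell and Wnt target genes, 13 of 15 measured members were higher, against 53.9% of all genes. The list's median log2 ratio was 0.47. At least 2-fold higher were 4 members, against 3.54% of all genes. Among these, Notum and Tnfrsf19 reached 10 reads only through the PhIP/DSS pool. Lgr5, the R-spondin receptor that marks crypt stem cells, had 1.44 RPKM with DSS and 3.06 RPKM with PhIP/DSS and was 2.12-fold higher (interval 1.53 to 2.97), with 2.71 RPKM in the control. Axin2, a scaffold protein and direct Wnt target, was 1.68-fold higher (interval 1.41 to 2.01) and was higher on all 3 days, but its PhIP/DSS day 7 level of 9.60 RPKM lay below the 19.9 RPKM of the control. Rnf43 and Znrf3, ligases that take Wnt receptors off the cell surface, were 1.38-fold higher (interval 1.20 to 1.59) and 1.44-fold higher (interval 1.08 to 1.92). Tnfrsf19, a Wnt-induced receptor of crypt stem cells, had 4 reads with DSS and 21 with PhIP/DSS and was 5.16-fold higher (interval 1.74 to 20.7). Sox9, a transcription factor of the crypt base, was near equality at 30.7 RPKM with DSS and 31.4 RPKM with PhIP/DSS, and 2 members were lower: Ephb2, a receptor that positions crypt cells, 1.40-fold lower (interval 1.28 to 1.52), and Cd44, an adhesion receptor that leukocytes also carry, 1.55-fold lower (interval 1.39 to 1.73).

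A wider list of 44 Wnt antagonist, feedback and pathway genes was drawn up after these values had been seen, so its counts describe and support nothing. Of 32 with 10 reads, 22 were higher, 10 of them at least 2-fold against 3.54% of all genes. The 2 that were at least 2-fold lower were the secreted antagonist Sfrp1, with 26 reads with DSS and 11 with PhIP/DSS, and Dact3, with 44 reads with DSS and 20 with PhIP/DSS. Besides those above the higher genes included Apcdd1, a membrane inhibitor, with 6 reads with DSS and 41 with PhIP/DSS; Lef1, a partner of beta-catenin on DNA, with 4 reads with DSS and 26 with PhIP/DSS; Dkk2, a secreted antagonist, with 2 reads with DSS and 19 with PhIP/DSS; and Sp5, a target transcription factor, with 4 reads with DSS and 18 with PhIP/DSS. The receptors that carry most of the reads were close to equality, Lgr4 at 50.2 RPKM with DSS and 60.1 RPKM with PhIP/DSS and Fzd5 at 31.4 RPKM with DSS and 28.7 RPKM with PhIP/DSS. Prox1, a homeobox factor of lymphatic endothelium and of some enteroendocrine and tumour cells, had 0.175 RPKM with DSS and 1.95 RPKM with PhIP/DSS and was 11.1-fold higher (interval 4.86 to 31.4). The lymphatic markers Lyve1 and Flt4 had 28 reads with DSS and 53 with PhIP/DSS, and 11 reads with DSS and 12 with PhIP/DSS, so Prox1 differed more than either. Outside the lists, Cdx2, the homeobox factor of intestinal identity, was 2.17-fold lower (interval 1.96 to 2.39). The PhIP/DSS day 7 level of Cdx2, 32.6 RPKM, was the lowest of the 7 libraries, the other 6 lying between 70.7 and 115 RPKM.

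**Figure D3:**
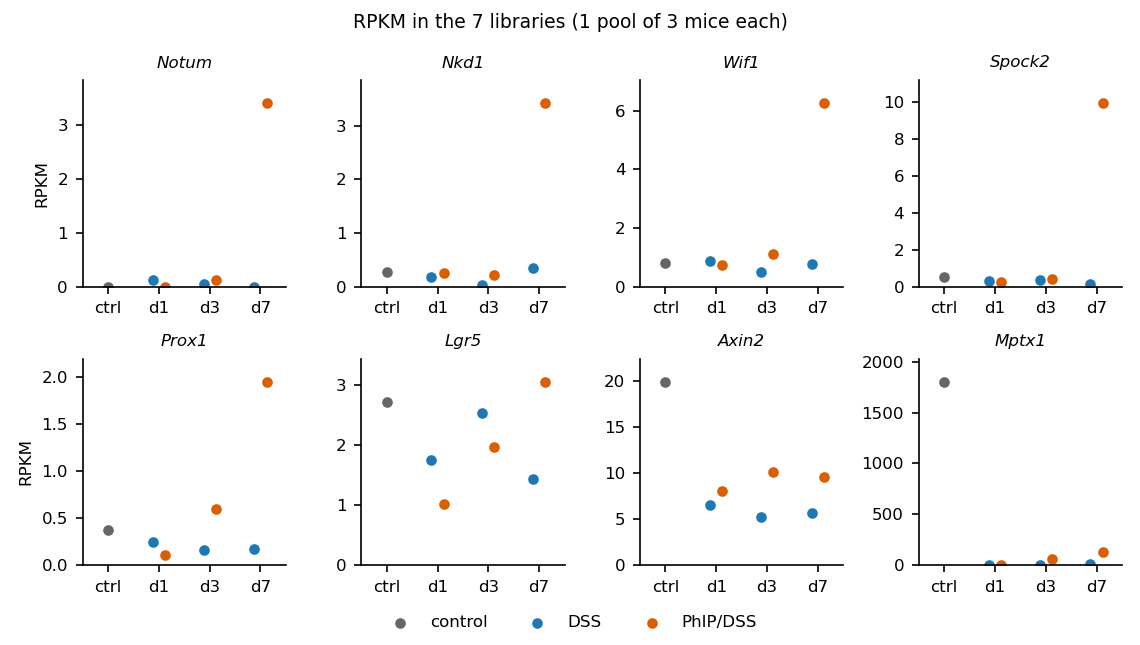
RPKM (linear axes from 0) of 8 genes in the 7 libraries, each 1 pool of 3 mice: control (grey), DSS (blue) and PhIP/DSS (orange) on days 1, 3 and 7. Notum, Nkd1, Wif1, Spock2 and Prox1 have their highest level in PhIP/DSS day 7, well above the other 6 libraries, Lgr5 there is near the control, and Axin2 and Mptx1 there stay below it.

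The gene with the largest measured ratio, apart from those with 0 reads on a side, was Spock2, which codes for a secreted extracellular matrix proteoglycan (chr10:60106257-60135198, GRCm38). It had 0.531 in the control library, 0.321 in DSS and 0.238 in PhIP/DSS on day 1, 0.348 and 0.423 on day 3, and 0.154 and 9.96 on day 7, in RPKM. With 5 reads in DSS and 329 in PhIP/DSS on day 7 it was 64.7-fold higher (interval 27.4 to 200.5), and no other library passed 0.531 RPKM. Prss56, a serine protease gene, had 32 reads in the PhIP/DSS day 7 library and 0 in each of the other 6, and was at least 10.5-fold higher than in DSS day 7. Mgp, matrix Gla protein, a calcification inhibitor, had 0 reads with DSS and 27 with PhIP/DSS and was at least 8.84-fold higher. Slc30a2, a zinc transporter, had 2 reads with DSS and 36 with PhIP/DSS, a ratio of 17.7 (interval 4.55 to 152). Ccl7, a monocyte chemokine, had 1 read and 30 reads, a ratio of 29.5 (interval 4.90 to 1203), but PhIP/DSS day 1 had a like level, 3.60 against 3.92 RPKM. The uncharacterised 2310079G19Rik was 13.4-fold higher (interval 5.46 to 42.5), and here DSS day 7 was low, at 0.689 RPKM against 15.1 in the control.

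Imprinted genes, which are read from 1 parental copy, were found at both ends of the ranking. H19, a maternally expressed noncoding RNA (chr7:142575530-142578146, GRCm38), had 2 reads with DSS and 42 with PhIP/DSS, a ratio of 20.6 (interval 5.37 to 176). Its level was 1.91 RPKM in this pool and no more than 0.174 in the other 6 libraries. Meg3 and Rian, neighbouring maternally expressed noncoding RNAs (chr12:109540996-109571729 and chr12:109603945-109661716), were low in the PhIP/DSS day 7 pool. Meg3 had 1.73 in the control library, 2.12 in DSS and 0.604 in PhIP/DSS on day 1, 1.71 and 1.56 on day 3, and 1.46 and 0.177 on day 7, in RPKM, and was 8.26-fold lower (interval 4.98 to 14.6) on day 7. Rian had 2.33 RPKM with DSS and 0.133 RPKM with PhIP/DSS, was 17.6-fold lower (interval 6.55 to 66.2), and lay at 1.47 RPKM or more in the other libraries. Both were thus lower in this pool than in the other 6. Dlk1, the paternally expressed gene of that locus, had 35 reads with DSS and 15 with PhIP/DSS. On a list of imprinted genes made after these values had been seen, 12 of 18 measured genes were lower. At least 2-fold lower were 5, against 3.28% of all genes. The abundant Gnas and Kcnq1ot1 were near equality, with log2 ratios of 0.08 and 0.06.

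Across the 483 genes that were 2-fold higher, 270 had their highest level of the 7 libraries in PhIP/DSS day 7, and for 122 DSS day 7 was the lowest. Across the 447 that were 2-fold lower, 105 had their lowest level in PhIP/DSS day 7, and for 110 DSS day 7 was the highest. Both sets were picked by the ratio of these 2 libraries, which by itself favours such ranks. The same counts over all genes were not taken, and 582 of the 930 genes past 2-fold had fewer than 50 reads. These ranks therefore only describe the sets. Of the 377 lower genes with 10 reads in every day's pair, 201 were also 2-fold lower on day 3 and 16 were 2-fold higher, while on day 1 only 14 were lower and 209 higher. Of the 343 higher genes with such reads, 94 were 2-fold higher on day 1 and 71 on day 3, and 43 and 37 were 2-fold lower there. Past 2-fold in 1 direction on all 3 days were 9 genes higher and 2 lower.

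Goblet cell genes were mostly close between the pools. The list's median log2 ratio was -0.04, with 7 of 18 members higher. Mptx1, a mucosal pentraxin of colon goblet cells (chr1:174330518-174332877, GRCm38), had 1804 in the control library, 6.13 in DSS and 5.11 in PhIP/DSS on day 1, 1.70 and 59.1 on day 3, and 13.3 and 132 on day 7, in RPKM. It was 9.94-fold higher (interval 7.98 to 12.5) in the PhIP/DSS pool on day 7, at a small share of the control level in both pools. Muc2, the gel-forming mucin of the colon, had 1180.0 in the control library, 892 in DSS and 477 in PhIP/DSS on day 1, 1238 and 807 on day 3, and 939 and 548 on day 7, in RPKM, and was 1.71-fold lower (interval 1.69 to 1.73) on day 7. Muc2 was lower with PhIP/DSS on all 3 days. Retnlb, a goblet cell antibacterial protein, was 1.59-fold lower (interval 1.55 to 1.63), whereas Clca1, a mucus-processing protein, was at 1853 RPKM with DSS and 1927 RPKM with PhIP/DSS.

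Absorptive colonocyte genes had a median log2 ratio of -0.08 with 7 of 17 higher, but single members stood apart in both directions. Slc37a2, a sugar phosphate exchanger, was 5.19-fold higher (interval 4.38 to 6.19) at 4.39 RPKM with DSS and 22.8 RPKM with PhIP/DSS, against 97.3 RPKM in the control. Tmigd1, an adhesion protein of the brush border, was 2.57-fold lower (interval 1.99 to 3.35), and Guca2a, guanylin, 2.01-fold lower (interval 1.90 to 2.13). The most abundant member, Lypd8, a protein that keeps flagellated bacteria off the epithelium, was 1.09-fold higher (interval 1.08 to 1.10), and Cdhr5, a brush border cadherin, 1.16-fold lower (interval 1.13 to 1.18).

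Ion and water transport genes split evenly, with 10 of 20 higher and a median log2 ratio of 0.00. Atp12a, the colonic proton-potassium pump, was 2.33-fold higher (interval 2.24 to 2.43), at 98.3 RPKM with DSS and 229.6 RPKM with PhIP/DSS against 194 in the control. Slc5a8, a butyrate carrier, and Slc26a3, the chloride-bicarbonate exchanger, were 1.82-fold higher (interval 1.71 to 1.94) and 1.43-fold higher (interval 1.36 to 1.51). Slc9a3, the apical sodium-proton exchanger, was 3.08-fold lower (interval 2.70 to 3.52), and its 14.3 RPKM was the lowest of the 7 libraries. Scnn1b, a subunit of the sodium channel ENaC, was 1.85-fold lower (interval 1.61 to 2.14). Outside the list, Sgk1, a kinase that raises sodium uptake, was 2.01-fold lower (interval 1.87 to 2.17) and was lower with PhIP/DSS on all 3 days. Atp1b1, a sodium pump subunit, had a log2 ratio of 0.06.

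Of the vitamin D and calcium transport genes, S100g, calbindin D9k, was 4.66-fold higher (interval 3.06 to 7.34) and Trpv6, the apical calcium channel, 2.49-fold higher (interval 2.00 to 3.12). Vdr, the vitamin D receptor, was 1.28-fold higher (interval 1.22 to 1.34), and 3 of 5 members were higher. Atp2b1, the basolateral calcium pump, was near equality at 27 RPKM with DSS and 26.9 RPKM with PhIP/DSS. The remaining member, Slc8a1, went the other way, with a log2 ratio of -1.28 over 342 reads in the pair. The order of the pools for S100g was not constant, since its log2 ratio was -1.35 on day 1 and 4.87 on day 3.

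The Hox genes that mark the distal colon were higher in 6 of 7 members, with a median log2 ratio of 0.70. Hoxb13 was 1.63-fold higher (interval 1.53 to 1.73), Hoxd13 2.38-fold higher (interval 2.17 to 2.62) and Hoxd12 4.70-fold higher (interval 2.98 to 7.72), while Hoxa13 was near equality at 26.6 RPKM with DSS and 24.5 RPKM with PhIP/DSS. The median was -1.03 on day 1 and 2.19 on day 3. The sources used here do not say where along the colon each pool was scraped, and the part that position may have in the epithelial values above was not tested. Tuft cell genes were lower in 8 of 11 (median -0.32); the cytoskeletal Avil was 1.36-fold lower (interval 1.01 to 1.83) and the cyclooxygenase Ptgs1 1.84-fold higher (interval 1.08 to 3.19). Enteroendocrine genes were higher in 9 of 12 (median 0.36): Pyy, peptide YY, was 1.37-fold higher (interval 1.25 to 1.51), Insl5, a hormone of distal L cells, 1.82-fold higher (interval 1.57 to 2.11) and Chgb 1.16-fold higher (interval 1.06 to 1.26), with Cck, cholecystokinin, 2.23-fold lower (interval 1.20 to 4.31). Antimicrobial genes were mixed, 10 of 19 higher with a median of 0.12. Pigr, the receptor that carries antibodies into the lumen, was 1.27-fold higher (interval 1.25 to 1.28), Lyz1, Paneth-type lysozyme, 2.77-fold higher (interval 2.23 to 3.47), and Lcn2, lipocalin 2, a protein of neutrophils and stressed epithelium, 2.80-fold lower (interval 2.26 to 3.48).

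Interferon-stimulated genes were higher in the PhIP/DSS pool as a group. Of the type I interferon targets all 22 were higher, with a median log2 ratio of 0.64 against 0.03 over all genes. At least 2-fold higher were 4 of the 22, against 3.54% of all genes. The promoters of 3 members of the interferon lists and 1 MHC class II gene are shown because they hold the sequence to which the interferon-activated factors bind, the interferon-stimulated response element, or the CCAAT box of MHC class II promoters. They run from 250 bases before to 50 after the start of the RefSeq gene on GRCm38.p6, 5′ to 3′ on the gene's strand, and capitals mark each match on either strand to GAAA, any 2 bases and GAAA, or, in H2-Aa, to CCAAT. Isg15 is at chr4:156200769-156201068, minus strand, Ifit1 at chr19:34640639-34640938, plus strand, Gbp3 at chr3:142559794-142560093, plus strand, and H2-Aa at chr17:34287774-34288073, minus strand.
Isg15: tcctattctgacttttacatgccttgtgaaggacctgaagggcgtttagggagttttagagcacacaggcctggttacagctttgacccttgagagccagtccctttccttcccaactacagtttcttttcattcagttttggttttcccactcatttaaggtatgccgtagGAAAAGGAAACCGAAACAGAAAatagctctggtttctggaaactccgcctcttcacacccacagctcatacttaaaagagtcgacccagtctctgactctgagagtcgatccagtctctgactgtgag
Ifit1: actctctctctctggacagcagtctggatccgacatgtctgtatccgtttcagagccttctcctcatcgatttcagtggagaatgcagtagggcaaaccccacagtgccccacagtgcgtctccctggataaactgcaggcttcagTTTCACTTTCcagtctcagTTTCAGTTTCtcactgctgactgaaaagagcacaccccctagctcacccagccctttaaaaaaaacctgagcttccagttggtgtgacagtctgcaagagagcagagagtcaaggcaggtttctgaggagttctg
Gbp3: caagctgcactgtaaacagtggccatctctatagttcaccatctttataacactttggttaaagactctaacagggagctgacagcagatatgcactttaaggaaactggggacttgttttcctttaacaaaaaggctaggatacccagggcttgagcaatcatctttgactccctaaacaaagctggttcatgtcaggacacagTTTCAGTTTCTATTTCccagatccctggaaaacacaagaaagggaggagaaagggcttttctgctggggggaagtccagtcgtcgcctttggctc
H2-Aa: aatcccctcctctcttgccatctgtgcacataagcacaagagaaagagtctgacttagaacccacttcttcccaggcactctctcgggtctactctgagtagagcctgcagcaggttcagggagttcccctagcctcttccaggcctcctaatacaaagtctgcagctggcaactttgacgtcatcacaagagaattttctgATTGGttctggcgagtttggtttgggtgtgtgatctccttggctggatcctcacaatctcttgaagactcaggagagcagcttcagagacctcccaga

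Isg15 holds 3 overlapping matches, Ifit1 and Gbp3 hold 2 each, and H2-Aa holds 1. A promoter sequence was at hand for 15 of the 22 type I targets, of which 9 (60%) held the response element, and for 16 of the 23 interferon gamma targets, of which 10 (62.5%) did. Over all compared genes with a promoter it was 425 of 10840, 3.92%. CCAAT occurred in 8 of 8 MHC class II promoters and in 42.6% of all. The clock element CACGTG occurred in 5 of 15 clock gene promoters and in 11.4% of all, and the short TCF/LEF sequence ATCAAAG, searched after the Wnt values had been seen, in 2 of 30 promoters of the wider Wnt list (6.67%), 1 of 10 of the crypt list (10%) and 3.03% of all. A match is a run of letters in a window and not a measured binding site.

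Isg15, a ubiquitin-like protein that is attached to others during an antiviral response, had 23 in the control library, 32.6 in DSS and 64.5 in PhIP/DSS on day 1, 35.5 and 50.6 on day 3, and 37.2 and 92.9 on day 7, in RPKM, and was 2.50-fold higher (interval 2.14 to 2.92) on day 7. Its level in PhIP/DSS day 7 was the highest of the 7 libraries. Ifit1, which binds foreign RNA, had 26.3 RPKM with DSS and 52.2 RPKM with PhIP/DSS and was 1.98-fold higher (interval 1.79 to 2.20). Ifi44 was 3.21-fold higher (interval 2.58 to 4.01), Oasl2, a sensor-related gene of the oligoadenylate synthetase family, 1.94-fold higher (interval 1.83 to 2.05), and Irf7, the factor that amplifies type I interferon, 1.45-fold higher (interval 1.36 to 1.54). The smallest ratios in the list were those of Xaf1, 1.27-fold higher (interval 1.12 to 1.44), and Ifih1, an RNA sensor, 1.28-fold higher (interval 1.19 to 1.38). All 22 were also higher with PhIP/DSS on day 3 (median 0.41) and 21 of 22 on day 1 (median 0.46), with Xaf1 the exception at -0.84. Apart from Xaf1, whose day 3 value was 0.00, each member had the same order of pools on all 3 days. The list was chosen with results of these libraries known, so its direction is not independent evidence.

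**Figure D4:**
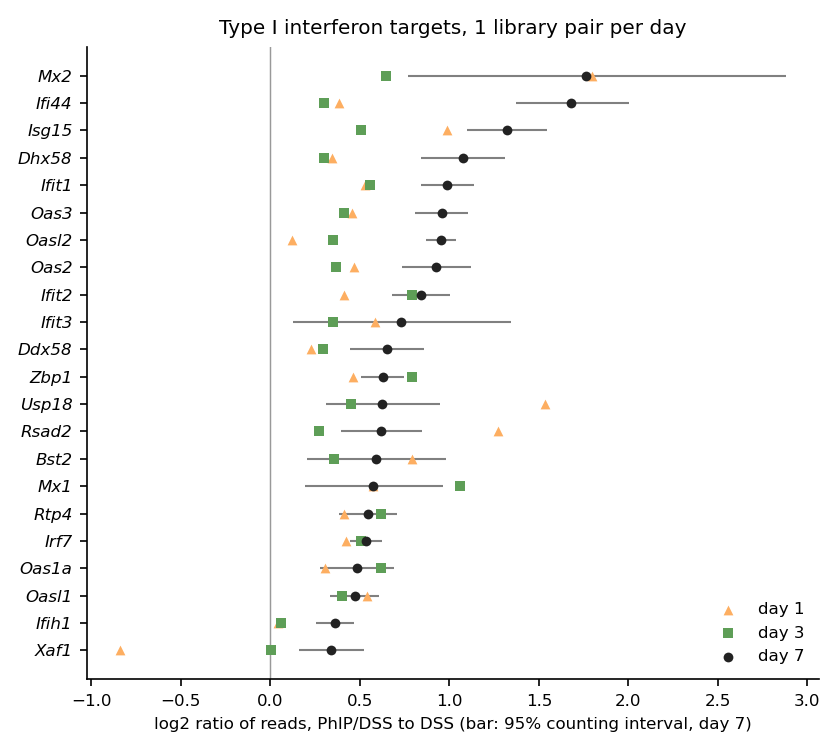
Log2 ratio of reads, PhIP/DSS to DSS, for the 22 type I interferon targets (rows), with day 7 as black circles and its 95% counting interval as a bar, day 3 as green squares and day 1 as orange triangles. All 22 day 7 points lie above 0, from 0.34 for Xaf1 to 1.76 for Mx2, and Xaf1 is the gene with a day 1 point below 0.

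Interferon gamma targets were higher in 20 of 23, with a median log2 ratio of 0.57, and in 23 of 23 on day 1 and 17 of 23 on day 3. Gbp2, a guanylate-binding GTPase that attacks intracellular microbes, had 20.9 in the control library, 24.3 in DSS and 47.5 in PhIP/DSS on day 1, 40.2 and 60.0 on day 3, and 80.3 and 150.1 on day 7, in RPKM, and was 1.87-fold higher (interval 1.76 to 1.98) on day 7. Its relative Gbp3 was 2.49-fold higher (interval 2.11 to 2.94), and the immunity-related GTPases Iigp1 and Igtp were 2.18-fold higher (interval 1.88 to 2.54) and 1.69-fold higher (interval 1.49 to 1.91). Irf1, a transcription factor that relays the signal, was 1.14-fold higher (interval 1.08 to 1.20). The 3 members that were lower were the T cell chemokine genes Cxcl10, 1.40-fold lower (interval 1.06 to 1.84), and Cxcl11, with 13 reads with DSS and 10 with PhIP/DSS, and the feedback inhibitor Socs1, with 97 reads with DSS and 75 with PhIP/DSS. The counting intervals of Cxcl11 and Socs1 include equality.

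All 11 MHC class II genes were higher, 5 at least 2-fold against 3.54% of all genes, with a median log2 ratio of 0.99. Cd74, the invariant chain, had 112 in the control library, 158 in DSS and 314 in PhIP/DSS on day 1, 104 and 135 on day 3, and 219 and 410.1 on day 7, in RPKM, and was 1.88-fold higher (interval 1.79 to 1.97) on day 7. H2-Ab1 and H2-Aa, chains of the peptide-presenting molecule I-A, were 1.88-fold higher (interval 1.72 to 2.05) and 1.74-fold higher (interval 1.57 to 1.93). H2-DMb1, part of the peptide-loading molecule, was 2.76-fold higher (interval 2.06 to 3.74), and H2-Ob, part of its B cell inhibitor, 3.01-fold higher (interval 1.65 to 5.81). Ciita, the coactivator of class II genes, was 1.53-fold higher (interval 1.17 to 1.99). For Cd74, H2-Ab1, H2-Aa and H2-DMb1 the PhIP/DSS day 7 level was the highest of the 7 libraries. Class I and processing genes were higher in 15 of 16, with a median of 0.40: B2m, beta-2 microglobulin, was 1.51-fold higher (interval 1.46 to 1.55), and the immunoproteasome subunits Psmb8 and Psmb9 2.01-fold higher (interval 1.79 to 2.27) and 1.92-fold higher (interval 1.58 to 2.34). Calr, a chaperone and the list's exception, had 566 RPKM with DSS and 554 RPKM with PhIP/DSS.

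B and plasma cell genes were higher in all 19 measured members, 14 of them at least 2-fold against 3.54% of all genes, with a median log2 ratio of 1.77. Genes of B cell identity and of follicles had the largest ratios. Pax5, the transcription factor of B cell identity, had 2 reads with DSS and 15 with PhIP/DSS, a ratio of 7.37 (interval 1.71 to 66.4). Cr2, a complement receptor of B cells and follicular dendritic cells, was 6.79-fold higher (interval 3.59 to 14.2), Cxcr5, the follicle-homing receptor, 6.27-fold higher (interval 2.95 to 15.3) and Ms4a1, which codes for CD20, 5.16-fold higher (interval 2.76 to 10.5). Cd79a, part of the B cell receptor, had 7.96 in the control library, 3.71 in DSS and 8.12 in PhIP/DSS on day 1, 4.38 and 4.20 on day 3, and 3.56 and 14.9 on day 7, in RPKM, and was 4.18-fold higher (interval 2.94 to 6.09) on day 7. The plasma cell gene Jchain, which joins antibody units, was 1.56-fold higher (interval 1.41 to 1.73), and Xbp1, which epithelium shares, 1.11-fold higher (interval 1.05 to 1.18). Outside the list, and picked after their values were seen, the follicle chemokine Cxcl13 had 40 reads with DSS and 116 with PhIP/DSS, the IgM receptor gene Fcmr 11 reads with DSS and 87 with PhIP/DSS, and Glycam1, a ligand of vessels in lymphoid tissue, 0 and 13 reads. The control level of Glycam1, 3.13 RPKM, was above its 2.48 RPKM in PhIP/DSS day 7. The B cell list's median was 0.82 on day 1 and -0.17 on day 3, and its summed level ran from 117 to 178 RPKM in the other 6 libraries and was 231 in PhIP/DSS day 7. B cells carry MHC class II genes, and the part that their RNA has in the class II values was not tested.

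T and NK cell genes were higher in 13 of 18, 9 at least 2-fold against 3.54% of all genes, with a median of 1.00. That share covers genes of every read count, and of the 930 genes past 2-fold in either direction 582 had fewer than 50 reads. These genes had few reads: over the 5 members with at least 50 reads in the pair 60% were higher and the median was 0.13, and over all 18 as differences of log2(RPKM + 1) it was 0.43. The receptor component Cd3e was 3.13-fold higher (interval 1.55 to 6.83) and Lck, its kinase, 3.02-fold higher (interval 1.58 to 6.16), neither with more than 60 reads in a day 7 library. Cd8a, a chain of the CD8 coreceptor, had 3 reads with DSS and 18 with PhIP/DSS, a ratio of 5.90 (interval 1.72 to 31.3). The cytotoxic gene Gzmb had 33 reads with DSS and 33 with PhIP/DSS, and the chemokine gene Ccl5 45 reads with DSS and 45 with PhIP/DSS. Mast cell and eosinophil genes were higher in 7 of 9 (median 0.71): the mucosal mast cell proteases Mcpt1 and Mcpt2 were 2.08-fold higher (interval 1.62 to 2.70) and 3.60-fold higher (interval 2.43 to 5.47), and Cma1, a chymase, 3.33-fold higher (interval 1.76 to 6.73). The receptor gene Kit had 240 reads with DSS and 283 with PhIP/DSS, and its interval included equality.

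Lists of DNA damage and xenobiotic responses lay near the median of all genes on day 7. The p53 targets, induced by DNA damage, were higher in 8 of 22 with a median log2 ratio of -0.04. Cdkn1a, the cell cycle inhibitor p21, was 1.26-fold lower (interval 1.21 to 1.32), Phlda3 2.04-fold lower (interval 1.29 to 3.27), Sesn2 1.47-fold lower (interval 1.15 to 1.88), and Perp and Mdm2 had 258 RPKM with DSS and 253 RPKM with PhIP/DSS, and 14.8 RPKM with DSS and 14.9 RPKM with PhIP/DSS. The member with the largest ratio was Gdf15, a stress cytokine, with 7 reads with DSS and 16 with PhIP/DSS, a ratio of 2.25 (interval 0.874 to 6.46). Aryl hydrocarbon receptor targets and xenobiotic enzymes were higher in 11 of 22 (median 0.07). Among them the sulfotransferase genes Sult1a1 and Sult1b1 were 1.62-fold higher (interval 1.39 to 1.90) and 1.15-fold higher (interval 1.08 to 1.21), the efflux pump Abcb1a 1.10-fold higher (interval 1.03 to 1.18), and the glucuronosyltransferases Ugt1a1 and Ugt1a6a, whose transcripts share their last exons so that reads may be split between them, 2.26-fold lower (interval 1.27 to 4.19) and 1.84-fold lower (interval 1.05 to 3.30). Ugt1a1 and Ugt1a6a had only 58 and 59 reads in the pair. Ugt1a7c, a further Ugt1a gene of the list, had 1515 reads and was near equality, with a log2 ratio of -0.01. NRF2 targets of oxidative stress were lower in 17 of 21 (median -0.13), with Hmox1, heme oxygenase, 2.71-fold lower (interval 2.05 to 3.61), and Slc7a11, the cystine carrier, 2.46-fold lower (interval 1.96 to 3.10). Both are also expressed by myeloid cells. In the same pool the neutrophil markers were lower, while macrophage and monocyte markers were split, with 9 of 16 lower. The part of such cells in these values was not tested. PhIP had been given before the DSS course, and the part that the time since the last dose has in these values was not tested.

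Proliferation genes were close between the pools. Those of DNA replication were higher in 10 of 22 (median -0.03; Pcna 0.03, or -0.0024 under TMM scaling, and Mcm6 -0.28 in log2), while mitosis and spindle genes were higher in 19 of 20 by small amounts (median 0.26, none 2-fold). Mki67 was 1.10-fold higher (interval 1.03 to 1.16), Top2a 1.19-fold higher (interval 1.09 to 1.31), the centromere gene Cenpf 1.38-fold higher (interval 1.16 to 1.64) and the spindle checkpoint kinase Ttk 1.52-fold higher (interval 1.08 to 2.14). On day 3 the mitosis median was -0.25.

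Metabolic and stress lists differed by small amounts, often in 1 direction. Hypoxia and glycolysis genes were lower in 19 of 20 (median -0.21), with Vegfa, the vessel growth factor, 1.42-fold lower (interval 1.27 to 1.58), and Aldoa, aldolase, 1.15-fold lower (interval 1.12 to 1.19). Cholesterol synthesis genes were lower in 18 of 19 (median -0.17), with Lss -0.65, Fdft1 -0.30 and Hmgcs1 -0.20 in log2. Fatty acid oxidation and ketogenesis genes were lower in 14 of 20 (median -0.11), among them Pdk4 2.10-fold lower (interval 1.35 to 3.34). Respiratory chain genes were higher in 17 of 20 (median 0.06), or in 70% under TMM scaling (median 0.025), with Ndufv2 1.30-fold higher (interval 1.20 to 1.42). Unfolded protein response genes were higher in 13 of 17 (median 0.11), and heat shock genes in 7 of 13 (median 0.06), with Hspa8 1.37-fold higher (interval 1.34 to 1.40) and Hsph1 1.36-fold higher (interval 1.17 to 1.57). Clock genes were higher in 12 of 17 (median 0.17): Nr1d1, a repressor of the clock loop, was 1.92-fold higher (interval 1.73 to 2.14) and Dbp had 21 reads with DSS and 31 with PhIP/DSS. The sources used here do not give the hour of killing, and its part in these values was not tested. Immediate early genes, which respond within minutes to injury and handling, were lower in 14 of 18 (median -0.24), led by the matricellular genes Ccn2, 4.58-fold lower (interval 2.64 to 8.43), and Ccn1, 2.01-fold lower (interval 1.39 to 2.95), while Klf4 and Klf6 had log2 ratios of 0.05 and 0.13.

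**Figure D5:**
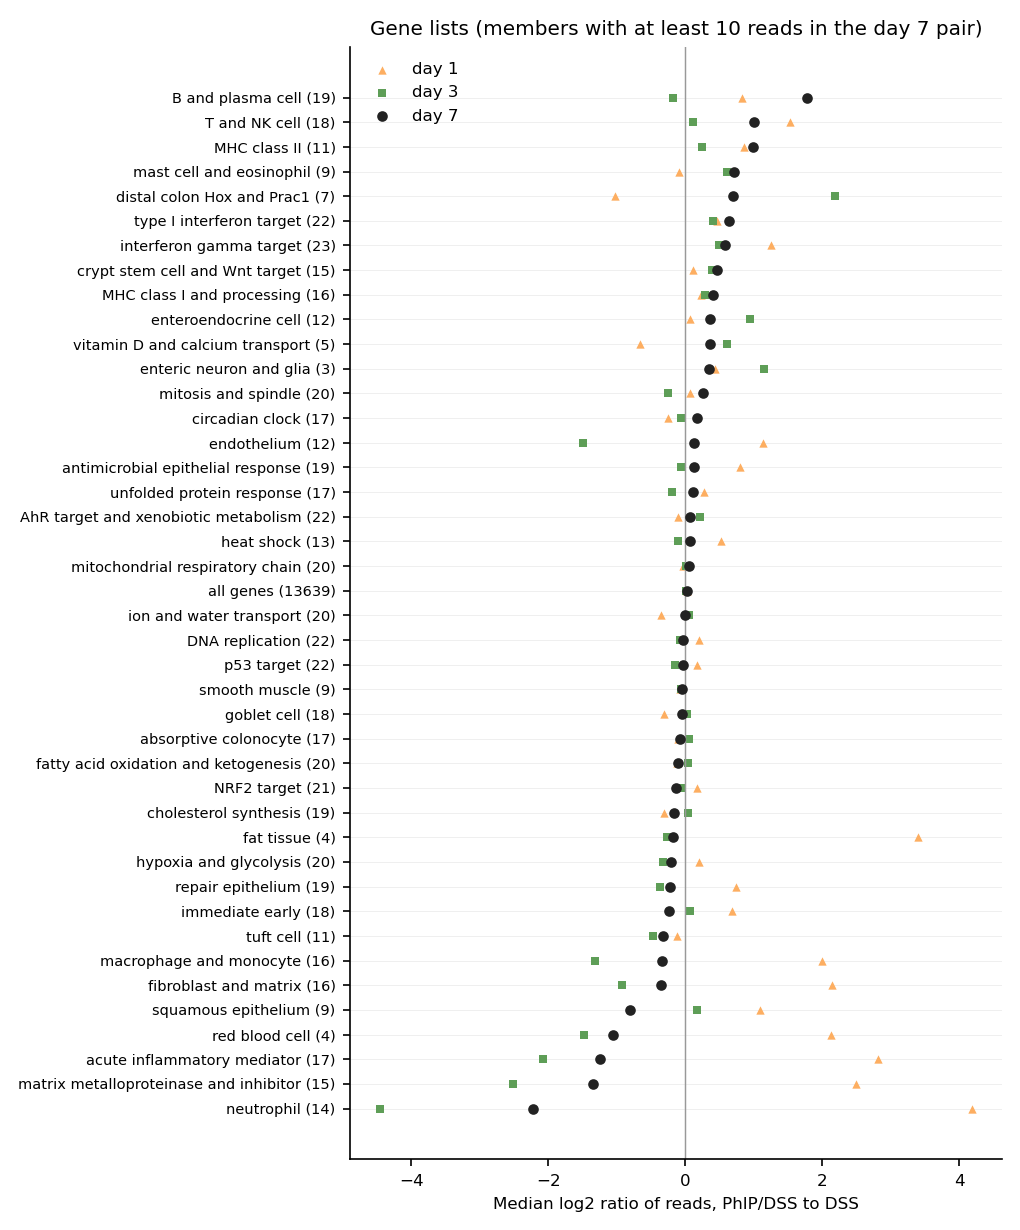
Median log2 ratio of reads, PhIP/DSS to DSS, for each gene list (rows, with the number of members that had 10 reads in the day 7 pair) and for all 13639 genes, with day 7 as black circles, day 3 as green squares and day 1 as orange triangles, each over the members with 10 reads in that day's pair. Day 7 medians run from -2.22 for neutrophil genes to 1.77 for B and plasma cell genes. The neutrophil, macrophage, mediator and metalloproteinase lists lie above 0 on day 1 and below 0 on days 3 and 7.

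A PhIP term common to the 3 days was fitted with edgeR's quasi-likelihood test, with day as a block, so that the 3 pairs stand in for replicates, with 2 residual degrees of freedom. Of 12061 genes tested, 0 passed a Benjamini-Hochberg adjusted p of 0.05 (0%), and the smallest adjusted p was 0.121. At an unadjusted edgeR p under 0.05 there were 442 genes, 242 higher (2.01%) and 200 lower (1.66%). Together they were a smaller share of the genes than the 0.05 that such a limit passes with no effect. Their number by itself therefore shows no difference between the arms. DESeq2 called 13 genes, 7 higher and 6 lower, and limma on log2(RPKM + 1) called 0. Leaving out the day 1 pair, which has the opposite sign for the neutrophil and mediator lists, edgeR called 309 genes, 122 higher and 187 lower, with 1 residual degree of freedom; leaving out the day 3 or the day 7 pair it called 0.

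The interferon and MHC lists held many of the unadjusted calls. Higher at an unadjusted edgeR p under 0.05 were 18 of 22 type I interferon targets, 15 of 22 interferon gamma targets, 10 of 16 class I genes and 7 of 10 class II genes, against 2.01% of all. These lists were chosen with results of the same libraries known, so the contrast is not independent evidence. The log2 fold change over the 3 days was 0.80 (SE 0.10) for Gbp2, 0.74 (SE 0.09) for Igtp, 0.92 (SE 0.17) for Isg15 and 0.74 (SE 0.14) for Cd74. It was 0.65 (SE 0.15) for Axin2, -0.78 (SE 0.12) for Muc2 and -0.92 (SE 0.12) for Sgk1, which is in no list. None of these passed after adjustment in the edgeR fit over all 3 pairs, where each had an adjusted p of 0.998. DESeq2 over the same pairs called Gbp2, Cd74, Muc2 and Sgk1. For S100a9, whose sign changed between days, it was -2.11 (SE 2.55).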

How the data were processed

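RNA was sequenced from 7 pools of scraped mouse colon epithelium, each of 3 mice, after oligo(dT) selection, per the labels' protocols. The deposited tables hold unique read counts per gene and RPKM values made by the authors; RPKM equals reads divided by gene length and by the library total in the file headers. The submitters' processing notes name FastQC and genome build mm10; the aligner, the counter, the annotation and the use of strand are not stated there or in the labels (not given in the sources used here), so overlapping or antisense genes cannot be told apart. Gene symbols came from RefSeq on GRCm38.p6 by gene number, with none for 53 of the 18036 genes (at most 0.178% of reads in a library). Promoter sequences are from RefSeq on the same build.

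Day 7 ratios used reads scaled by library totals, over genes with at least 10 reads in the pair, with exact 95% intervals for the ratio of 2 Poisson counts. Reads are not independent molecules, so these intervals and the floor of 3 reads cover counting error only. A PhIP effect over the 3 days was tested with edgeR 4.0.16 (quasi-likelihood, TMM, genes with at least 1 RPKM in 2 libraries), and with DESeq2 1.42.0 and limma 3.58.1 as alternatives; the spread is that of the PhIP difference between days, since no condition has a second pool. Other scalings, read minimums, fold limits and each day left out were also tried.

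Members and gene lists were chosen with earlier results of these data known. Genes named are the 12 with the highest lower bound and the 12 with the lowest upper bound of the ratio (at least 1 RPKM in a library of the pair), up to 4 per list (the 2 with most reads and the 2 with the largest ratio among those with 50 reads), and a short fixed set. Further list members are named to show how a list varied, and were picked after their values were seen. Sgk1 and Cdx2, like Cxcl13, Fcmr and Glycam1, are in no list and were named outside these rules, with results of these data known.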

Additional observations from a re-analysis of the deposited data

Results flagged for a closer look

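Lists whose measured members all moved one way on one day and all the other way on another day stand out. The neutrophil list had a median log2 ratio of PhIP/DSS to DSS of -2.22 on day 7 and 4.19 on day 1, with all 14 measured members lower on day 7 and all 14 higher on day 1. The red blood cell list had a median of -1.05 on day 7 and 2.13 on day 1, with 4 of 4 lower and 4 of 4 higher. The difference between the days was not tested, since each day has 1 pool per side.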

How the results depend on the processing

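Against 483 genes at least 2-fold higher and 447 lower with PhIP/DSS on day 7, the counts were 755 and 854 with no read minimum, 150 and 198 with at least 50 reads, 1139 and 953 at a fold limit of 1.5, 181 and 153 at a limit of 3, and 87 and 125 as differences of log2(RPKM + 1). TMM gave 466 and 465, and DESeq2 size factors 474 and 458. TMM moved the median of all genes by -0.03 and DESeq2 size factors by -0.02 (log2). With at least 50 reads the share of members higher became 100% of 4 mast cell and eosinophil genes and 0% of 2 squamous genes, while the list medians became 0.13 for T and NK cell genes (from 1.00), 1.40 for mast cell and eosinophil genes (from 0.71), 0.03 for endothelial genes (from 0.13), 0.26 for the wider Wnt list (from 0.50), and changed sign for smooth muscle genes (0.02) and for the 2 neuron and glia genes left (-0.53). Under TMM or DESeq2 size factors the share higher became 0% for cholesterol synthesis genes, from 5.26%. Under TMM it became 70% for respiratory chain genes (from 85%), 80% for mitosis and spindle genes (from 95%) and 36.4% for DNA replication genes (from 45.5%). Of the named genes tried under 3 alternatives, Pcna (0.03 to -0.0024) and Atp5b (0.03 to -0.001) changed sign under TMM in log2, and 23 moved beyond their counting interval as differences of log2(RPKM + 1) while 148 did not.

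For the PhIP term over 3 days, edgeR called 0 genes with DESeq2 size factors, with no filter, without the day block and without the control, and DESeq2 called 13. Leaving out 1 day's pair gave from 0 to 309 calls. The cause of that range was not tested. The day block pairs the libraries by labelled day, since the labels give no replicate numbers; at an unadjusted p under 0.05 edgeR had 442 genes with it and 207 without it. One pool per condition limits every day 7 value, and for genes under 50 reads counting error is wide as well.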
